A study of Mus musculus with 24 samples.

Results

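Glycolytic enzymes were examined in the RNA-seq data of mouse bone marrow cells. The 10 enzymes were Hk1, Gpi1, Pfkl, Aldoa, Tpi1, Gapdh, Pgk1, Bpgm, Eno1 and Pkm, a named list matched to the table by gene ID. No measured value entered the rule, but the enzymes were chosen with earlier results of these data known. They were 10 of the 54752 genes in the table, and all 10 were among the 12373 genes that were tested. Aldoa matched 2 rows, and the values below are those of the row with the higher level (ENSMUSG00000030695.16), a choice made after its values were seen.

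By GENCODE M21 on GRCm38, all are protein-coding genes. Hk1 (ENSMUSG00000037012.18, chr10:62268855-62379908) and Pfkl (ENSMUSG00000020277.10, chr10:77986947-78010083) share chromosome 10. Gpi1 (ENSMUSG00000036427.5, chr7:34201330-34230336) and Aldoa (chr7:126795234-126800751) lie on chromosome 7. Tpi1 (ENSMUSG00000023456.15, chr6:124810586-124814296), Gapdh (ENSMUSG00000057666.18, chr6:125161715-125166467) and Bpgm (ENSMUSG00000038871.5, chr6:34476207-34505613) are on chromosome 6. Pgk1 (ENSMUSG00000062070.12, chrX:106187100-106203699) is on the X chromosome, Eno1 (ENSMUSG00000063524.13, chr4:150236721-150248879) on chromosome 4 and Pkm (ENSMUSG00000032294.17, chr9:59656368-59679375) on chromosome 9.

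Glycolysis splits glucose into pyruvate and yields ATP without oxygen. In its first stage, hexokinase, glucose-6-phosphate isomerase and phosphofructokinase prepare the sugar, which aldolase and triosephosphate isomerase turn into triose phosphates. In the later stage, glyceraldehyde-3-phosphate dehydrogenase, phosphoglycerate kinase, enolase and pyruvate kinase recover ATP and NADH. Red cells lose their mitochondria and live on this pathway, and they also run a side branch, in which Bpgm makes the 2,3-bisphosphoglycerate that lowers the oxygen affinity of haemoglobin. Neutrophils depend on it for much of their ATP. Nrf2, a transcription factor of the oxidative stress response, is best known in glucose metabolism for its targets in the pentose phosphate pathway, which branches off from glycolysis.

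The data cover 24 male C57BL/6 mice, 6 in each group, with a library per mouse. Wild-type (WT) and Nrf2-knockout (KO) mice were kept on the ground (GC-WT and GC-KO) or flown to the International Space Station for 31 days (FL-WT and FL-KO), and flight mice were 8 weeks old when they were brought to the launch site. Cells were collected from the right pelvis and tibia 2 days after landing or on the matching day and were cryopreserved. No driver that limits the knockout to a cell type is named in the sources used here. Flight mice were sampled in the United States and ground mice in Japan, so flight and the place of sampling cannot be told apart. No label states that mice of a group came from separate litters, and the p-values measure the spread between these mice.

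Levels are in TPM, transcript abundance scaled for transcript length and to a fixed total in each library. Nfe2l2, the gene of Nrf2, lay between 17.1 and 26.1 TPM in GC-WT, between 11.4 and 27.3 in FL-WT, between 3.6 and 7.18 in GC-KO and between 2.22 and 4.31 in FL-KO mice. All KO mice were below all WT mice. The haemoglobin gene Hba-a1 and the neutrophil gene S100a8 were at 22382 and 11541 TPM or more in every library, whereas the 8 markers of skeletal muscle, another tissue rich in glycolytic enzymes, together held only 1.48 to 7.34 TPM. Small structural RNAs held 35.4% to 59.6% of TPM, and most genes were lower in each comparison. Over the tested genes, the log2 fold change had a median of -0.24 for flight in WT mice, -0.29 for flight in KO mice, -0.22 for the knockout on the ground and -0.25 for the knockout in flight. Some libraries stood apart in the enzymes: FL-WT mouse 05 was the lowest of its group for all 10, FL-WT mouse 07 was the highest for 9, and the summed level in GC-KO mice 11 and 12 (1073 and 1072 TPM) was above that in the other 4 GC-KO mice (588 to 725 TPM).

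The 10 enzymes together held 0.0471% to 0.199% of all TPM. Their sum was 1336 ± 157 TPM (SD, n = 6) in GC-WT, 1375 ± 419 TPM (SD, n = 6) in FL-WT, 804 ± 213 TPM (SD, n = 6) in GC-KO and 606 ± 81.9 TPM (SD, n = 6) in FL-KO mice. Thus, the sum was lower in KO than in WT mice in both settings, and the spread was widest in FL-WT mice. In GC-WT mice, Gapdh was the most abundant of the enzymes at 496 ± 59.6 TPM (SD, n = 6), above every other enzyme in all 6 mice. It was followed by Bpgm, Pkm and Aldoa with means of 165, 164 and 144 TPM, and by Eno1 and Gpi1 with 118 and 116 TPM. The ranges of neighbours in this order from Bpgm to Gpi1 overlapped. Within mice, Pkm was above Aldoa in 6 of 6, Aldoa above Eno1 in 5, Eno1 above Gpi1 in 4 and Bpgm above Pkm in 3. Pgk1 (64.1 TPM), Tpi1 (37.1 TPM), Hk1 (26.8 TPM) and Pfkl (4.6 TPM) came last. Of these, only Tpi1 and Hk1 overlapped as neighbours, and Tpi1 was above Hk1 in 6 of 6 mice. In FL-KO mice, Gapdh (229 TPM) and Bpgm (122 TPM) were still in front, but Pgk1 (52.4 TPM) was ahead of Pkm (47.0 TPM) in 5 of 6 mice, although their ranges overlapped.

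**Figure D1:**
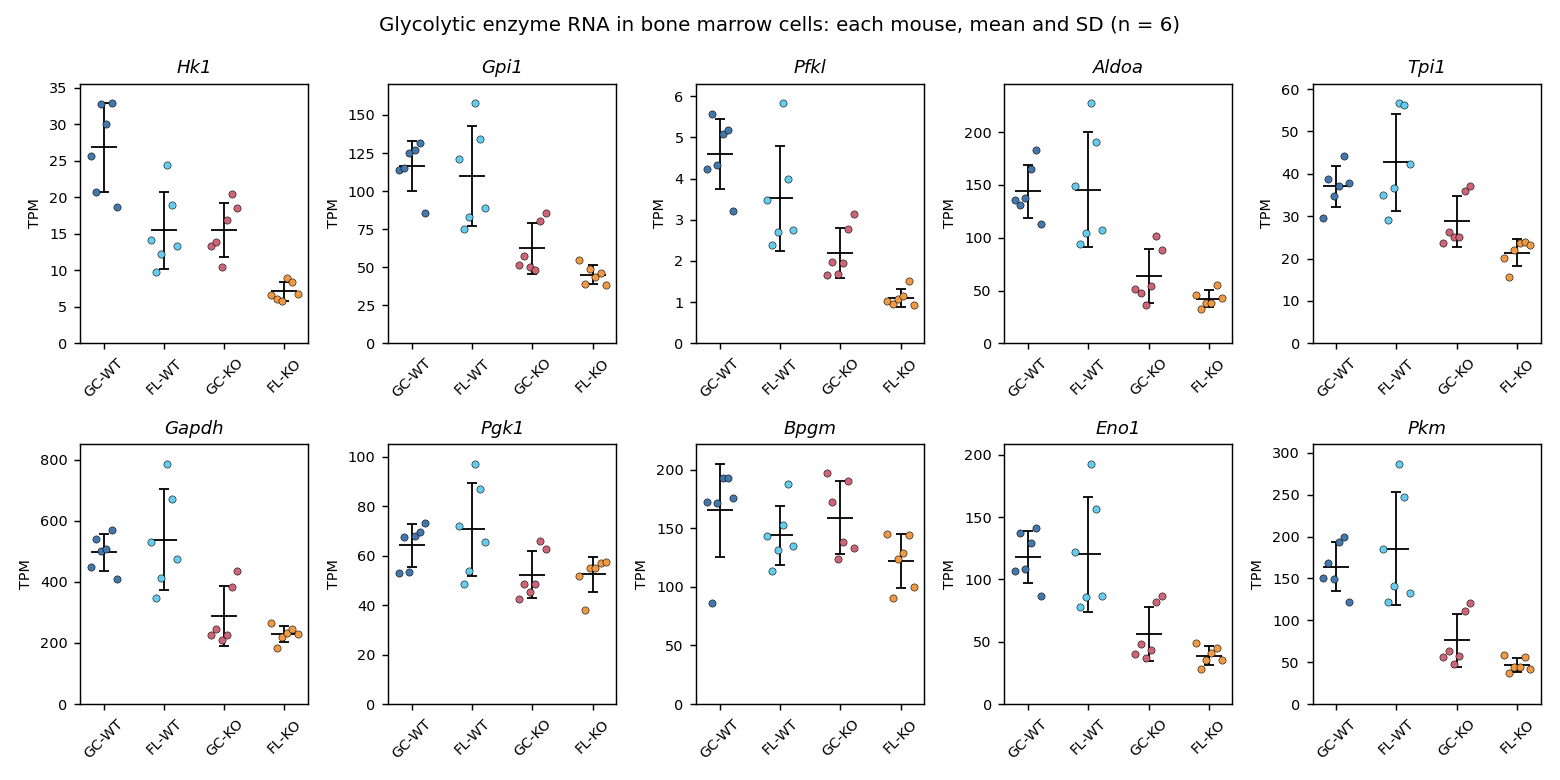
TPM of the 10 glycolytic enzymes (vertical axes, each from 0) in the 4 groups; points are mice and bars the mean and SD of 6 mice. For Pfkl, Aldoa and Pkm, all KO mice lay below all WT mice of the same setting, whereas the groups of Bpgm overlapped.

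Among the enzymes of the first stage, Hk1, a hexokinase that traps glucose as glucose-6-phosphate, ranged from 18.7 to 32.9 TPM (median 27.9) in GC-WT, from 9.77 to 24.4 (median 13.7) in FL-WT, from 10.4 to 20.4 (median 15.4) in GC-KO and from 5.86 to 8.98 (median 6.67) in FL-KO mice. All FL-KO mice were below every mouse of the other groups. Gpi1, the isomerase that makes fructose-6-phosphate, ranged from 85.8 to 131 TPM (median 120) in GC-WT, from 75.4 to 158 (median 105) in FL-WT, from 48.3 to 85.9 (median 54.5) in GC-KO and from 38.5 to 55.0 (median 44.8) in FL-KO mice. On the ground, only GC-KO mouse 12 reached the WT range. Pfkl, the liver-type subunit of phosphofructokinase, which catalyses the committed step, ranged from 3.22 to 5.58 TPM (median 4.71) in GC-WT, from 2.4 to 5.84 (median 3.11) in FL-WT, from 1.66 to 3.13 (median 2.0) in GC-KO and from 0.92 to 1.52 (median 1.04) in FL-KO mice. KO and WT mice of the same setting did not overlap.

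Aldoa, the aldolase that cleaves the sugar, ranged from 113 to 183 TPM (median 137) in GC-WT, from 93.8 to 228 (median 128) in FL-WT, from 36.6 to 101 (median 53.0) in GC-KO and from 32.0 to 55.6 (median 40.7) in FL-KO mice. Again, KO and WT mice of the same setting did not overlap. Tpi1, which interconverts the triose phosphates, ranged from 29.6 to 44.2 TPM (median 37.5) in GC-WT, from 29.0 to 56.7 (median 39.5) in FL-WT, from 23.7 to 37.0 (median 25.7) in GC-KO and from 15.7 to 23.9 (median 22.6) in FL-KO mice. Its genotypes overlapped on the ground but not in flight.

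In the later stage, Gapdh, the dehydrogenase that yields NADH, ranged from 409 to 571 TPM (median 504) in GC-WT, from 347 to 787 (median 502) in FL-WT, from 209 to 437 (median 236) in GC-KO and from 184 to 264 (median 230) in FL-KO mice. Eno1, the enolase, ranged from 86.4 to 141 TPM (median 119) in GC-WT, from 78.0 to 193 (median 104) in FL-WT, from 37.2 to 86.7 (median 45.6) in GC-KO and from 28.5 to 48.7 (median 38.1) in FL-KO mice. For both genes, the highest GC-KO mouse reached the WT range on the ground and no FL-KO mouse did in flight. Pkm, the pyruvate kinase of most tissues, ranged from 122 to 200 TPM (median 160) in GC-WT, from 121 to 287 (median 163) in FL-WT, from 48.3 to 120 (median 60.4) in GC-KO and from 37.0 to 58.5 (median 44.3) in FL-KO mice. The lowest WT mouse of each setting was above all KO mice of that setting.

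The levels of the remaining 2 enzymes overlapped between all groups. Pgk1, the kinase that makes the first ATP of the pathway, ranged from 52.9 to 73.2 TPM (median 67.9) in GC-WT, from 48.7 to 97.2 (median 68.7) in FL-WT, from 42.6 to 65.8 (median 48.7) in GC-KO and from 38.1 to 57.5 (median 55.0) in FL-KO mice. Bpgm, the mutase of the red cell side branch, ranged from 86.2 to 193 TPM (median 174) in GC-WT, from 114 to 188 (median 139) in FL-WT, from 124 to 197 (median 155) in GC-KO and from 90.2 to 145 (median 127) in FL-KO mice.

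Promoter windows of all 10 genes were found in RefSeq (GRCm38.p6), 16 windows of 300 bases in all, each with 250 bases before and 50 bases from the transcription start. They were searched on both strands for the core of the antioxidant response element (TGACNNNGC), which Nrf2 binds with small Maf proteins, and for the core of the hypoxia response element (ACGTG), which HIF-1 binds. The first was found in 2 of the 16 windows, of Hk1 and Aldoa, and in 12.4% of 32851 windows of the whole table. The second was found in 6 of the 16 windows, of 5 genes (Hk1, Aldoa, Gapdh, Pgk1 and Pkm), and in 19.6% of all windows. The E-box CACGTG (7.15% of all windows), which contains ACGTG, and the GATA motif AGATAA (11.2%) were found in 0 of the 16 windows, and CACCC, a motif of KLF factors (57.5%), in 8 of the 16. The Aldoa windows chr7:126799129-126799428 and chr7:126799205-126799504 overlap, and the same ACGTG and CACCC sites were counted in both. The Eno1 windows chr4:150236947-150237246 and chr4:150236974-150237273 also overlap and hold none of the motifs. The windows below are of Hk1 and Aldoa, which hold the antioxidant motif, of Pkm, which had the lowest log2 fold change between genotypes in flight, and of Pgk1 and Bpgm, whose genotypes overlapped. Capitals mark the letters of the antioxidant and hypoxia motifs on either strand. Each is written 5′ to 3′ on the strand of the gene.
Hk1, chr10:62340372-62340671, minus strand: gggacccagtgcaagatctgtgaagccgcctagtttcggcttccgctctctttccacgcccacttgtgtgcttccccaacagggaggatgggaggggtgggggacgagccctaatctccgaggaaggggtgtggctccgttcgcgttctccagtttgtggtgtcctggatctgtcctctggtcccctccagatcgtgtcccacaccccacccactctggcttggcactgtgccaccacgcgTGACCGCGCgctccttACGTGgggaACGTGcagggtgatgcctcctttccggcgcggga
Aldoa, chr7:126799205-126799504, minus strand: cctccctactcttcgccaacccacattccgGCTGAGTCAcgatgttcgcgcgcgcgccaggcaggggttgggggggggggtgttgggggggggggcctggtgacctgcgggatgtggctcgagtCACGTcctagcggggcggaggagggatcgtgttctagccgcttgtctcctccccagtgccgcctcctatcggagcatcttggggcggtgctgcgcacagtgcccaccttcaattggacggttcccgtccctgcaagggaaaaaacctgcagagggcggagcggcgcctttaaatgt
Pkm, chr9:59656977-59657276, plus strand: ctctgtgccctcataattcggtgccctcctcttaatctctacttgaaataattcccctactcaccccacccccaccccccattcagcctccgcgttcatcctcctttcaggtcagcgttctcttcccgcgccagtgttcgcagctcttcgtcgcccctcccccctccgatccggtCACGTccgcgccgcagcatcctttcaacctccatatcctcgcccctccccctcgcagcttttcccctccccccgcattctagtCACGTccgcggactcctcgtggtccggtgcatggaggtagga
Pgk1, chrX:106186850-106187149, plus strand: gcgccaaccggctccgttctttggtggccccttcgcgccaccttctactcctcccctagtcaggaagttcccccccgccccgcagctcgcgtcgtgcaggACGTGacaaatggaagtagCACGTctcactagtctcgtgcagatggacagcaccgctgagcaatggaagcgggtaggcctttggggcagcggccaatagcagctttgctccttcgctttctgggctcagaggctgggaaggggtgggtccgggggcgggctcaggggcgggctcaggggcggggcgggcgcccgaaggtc
Bpgm, chr6:34476106-34476405, plus strand: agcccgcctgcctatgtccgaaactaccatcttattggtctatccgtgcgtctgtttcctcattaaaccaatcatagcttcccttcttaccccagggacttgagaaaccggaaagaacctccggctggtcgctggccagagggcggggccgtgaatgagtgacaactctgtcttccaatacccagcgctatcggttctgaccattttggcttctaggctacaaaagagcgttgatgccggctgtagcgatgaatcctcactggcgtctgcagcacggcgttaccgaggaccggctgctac
In the Hk1 window, the antioxidant motif began at position -9 from the start and hypoxia motifs followed at 8 and 17. In that of Aldoa, the antioxidant motif lay farther upstream, at -220 on the opposite strand. The windows of Hk1, Aldoa and Pkm lie inside the span of the annotated gene, at one of several starts. Matches of letters alone do not show binding.

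The first comparison asked how the enzymes differed between Nrf2-KO and WT mice on the ground. Of the 10 enzymes, 8 were lower in GC-KO mice at an adjusted p under 0.1 and 0 were higher, while 42.9% of all tested genes were lower and 3.13% higher by the same rule (limma on log2(TPM + 1), Benjamini-Hochberg adjustment over all tested genes). Aldoa, Pkm and Eno1 had the lowest log2 fold changes (-1.24, -1.17 and -1.12) and were DEGs, that is, genes that also changed at least 2-fold. DEGs of lower level made up 3.04% of all tested genes. The median log2 fold change of the 10 enzymes was -0.83, and its difference from that of all tested genes was -0.60. In bulk RNA, fewer cells of a type and less RNA per cell cannot be told apart.

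By stage, all 3 enzymes that prepare the sugar were lower in GC-KO mice, and the mean TPM of Gpi1 fell by 46.5% (log2 fold change -0.92 ± 0.17 SE, adjusted p = 0.000454), that of Pfkl fell by 52.3% (-0.82 ± 0.15 SE, adjusted p = 0.000432) and that of Hk1 fell by 41.9% (-0.75 ± 0.18 SE, adjusted p = 0.00245). The mean TPM of Aldoa fell by 56.0% (-1.24 ± 0.22 SE, adjusted p = 0.000411), more than that of Tpi1, which fell by 22.3% (-0.37 ± 0.15 SE, adjusted p = 0.0609). In the later stage, Pkm fell by 53.6% (-1.17 ± 0.22 SE, adjusted p = 0.000454), Eno1 fell by 52.4% (-1.12 ± 0.22 SE, adjusted p = 0.000553) and Gapdh fell by 41.9% (-0.83 ± 0.18 SE, adjusted p = 0.00105). Pgk1 (-0.30 ± 0.15 SE, adjusted p = 0.128) and Bpgm (-0.03 ± 0.17 SE, adjusted p = 0.915) did not pass the test. Pgk1 passed as lower in 6 of 24 fits that left out a library (GC-WT mouse 03 or 06, FL-WT mouse 05 or 07, GC-KO mouse 11 or 12, adjusted p of 0.0592 to 0.098), without small RNAs (-0.42, adjusted p = 0.00435) and with the compared groups alone. The call of Tpi1 was lost without any 1 of GC-WT mouse 08 and GC-KO mice 01, 02, 04 and 09 (adjusted p of 0.11 to 0.141). The groups did not overlap for 3 enzymes, Pfkl, Aldoa and Pkm (rank sums, two-sided exact permutation test, unadjusted p = 0.00216 for each, the smallest p that 6 against 6 mice allow), and for 9.15% of all tested genes in this direction.

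These directions held under each scaling tried, except that Pgk1 and Bpgm turned to 0.04 and 0.31 with median-of-ratios scaling and Bpgm also to 0.02 and 0.23 with quantile normalisation and with the trend of GC content and length removed. The 3 DEGs were 0 with median-of-ratios scaling and 5 without small RNAs, and with the GC and length trend removed the log2 fold change of Hk1 was -0.09 (adjusted p = 0.372). That of Pfkl was then only -0.18 (adjusted p = 0.0235). Tpi1 did not pass with median-of-ratios scaling, quantile normalisation, the trend removed or no filter.

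The same comparison in flight gave larger values. Their difference from the values on the ground is the interaction tested below, which with TPM as deposited did not pass for any of the 10 enzymes. Of the 10 enzymes, 9 were lower in FL-KO mice at an adjusted p under 0.1 and 0 were higher, while 47.2% of all tested genes were lower and 1.91% higher. DEGs were 6 of the 10, namely Pkm, Aldoa, Eno1, Gpi1, Gapdh and Pfkl, against 8.36% of all tested genes. The groups did not overlap for 8 enzymes, all except Pgk1 and Bpgm, and for 20.6% of all tested genes (rank sums, two-sided exact permutation test, unadjusted p = 0.00216 for each of the 8). The median log2 fold change of the 10 was -1.12, and its difference from the median of all tested genes was -0.87.

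Pkm fell by 74.7% in mean TPM (-1.90 ± 0.22 SE, adjusted p = 7.88e-07), Aldoa fell by 71.1% (-1.71 ± 0.22 SE, adjusted p = 1.74e-06) and Eno1 fell by 67.6% (-1.54 ± 0.22 SE, adjusted p = 4.51e-06). Pfkl, at the committed step, fell by 68.6% (-1.07 ± 0.15 SE, adjusted p = 3.81e-06). Adding 1 to TPM makes the log2 fold change of so low a gene smaller than its ratio. Gpi1 fell by 59.1% (-1.23 ± 0.17 SE), Gapdh fell by 57.4% (-1.18 ± 0.18 SE), Hk1 fell by 53.9% (-0.97 ± 0.18 SE) and Tpi1 fell by 49.9% (-0.94 ± 0.15 SE), with adjusted p between 3.58e-06 and 0.000106. Pgk1 fell less, by 25.8% (-0.39 ± 0.15 SE, adjusted p = 0.0368; exact two-sided permutation test, unadjusted p = 0.18). It no longer passed without FL-WT mouse 07, FL-WT mouse 08 or FL-KO mouse 02 (adjusted p = 0.127, 0.106 and 0.12). Pgk1 also did not pass with median-of-ratios scaling, quantile normalisation or the GC and length trend removed (adjusted p = 0.979, 0.839 and 0.114). Bpgm again did not pass (-0.24 ± 0.17 SE, adjusted p = 0.282). With median-of-ratios scaling the values of Pgk1 and Bpgm were 0.00 (0.0037) and 0.16, Bpgm was also above 0 with quantile normalisation (0.03) and with the GC and length trend removed (0.10), and the other 8 enzymes kept their direction under each scaling. The DEGs were 3 with median-of-ratios scaling and 2 with the trend removed, where Hk1 also lost its call (-0.10, adjusted p = 0.298). Pfkl kept its call with the trend removed, but at a log2 fold change of only -0.19 (adjusted p = 0.0112).

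**Figure D2:**
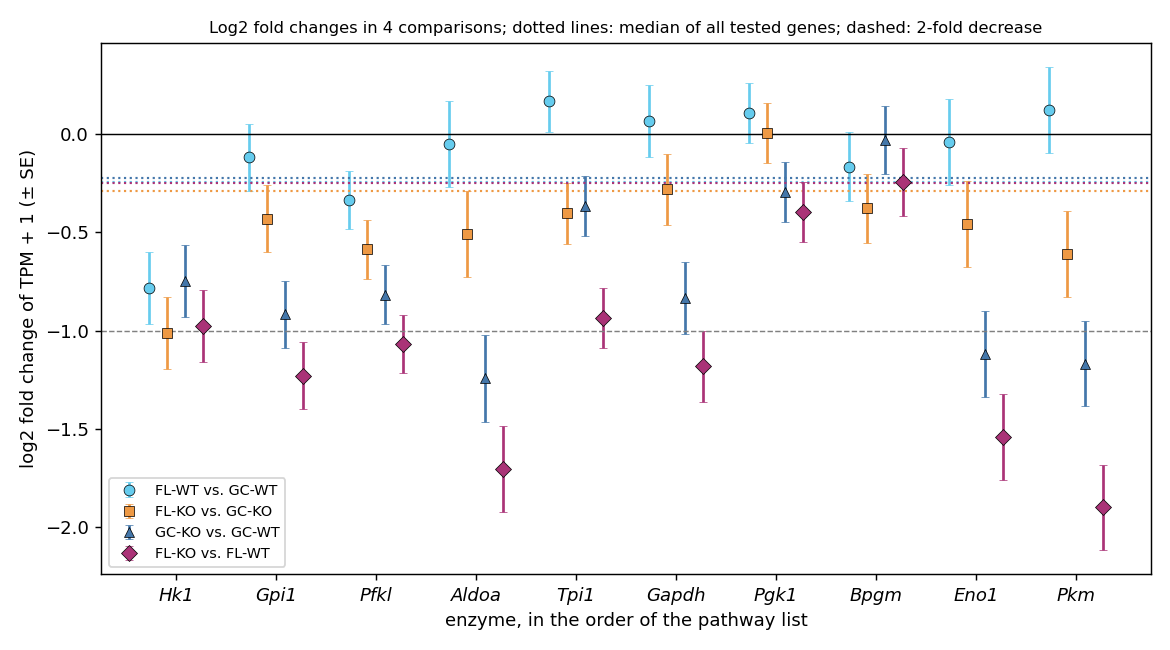
Log2 fold change of TPM + 1 (vertical axis, ± SE) of the 10 enzymes (horizontal axis) in the 4 comparisons, from a fit of 24 libraries; dotted lines are the medians of all tested genes (-0.22 to -0.29) and the dashed line a 2-fold decrease. Both KO comparisons reach below -1 for Aldoa, Eno1 and Pkm, whereas Bpgm stays between -0.38 and -0.03.

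Counts of cell type markers lower in KO mice stand beside 42.9% of all tested genes on the ground and 47.2% in flight. Of the 10 neutrophil markers, 5 were lower and 2 higher in KO mice on the ground, and 6 were lower and 0 higher in flight. Their summed level overlapped between genotypes (30150 to 55986 TPM in GC-WT, 41934 to 64325 in GC-KO, 44698 to 62486 in FL-WT and 50150 to 67422 in FL-KO mice). S100a8 and S100a9 made up most of this sum, with means of 15105 and 16573 TPM in GC-WT mice, where the list had a mean of 40882 TPM. Mpo, a gene of early granules, had means of 259 (GC-WT) and 201 TPM (FL-WT) in WT mice and of 85.2 (GC-KO) and 35.5 TPM (FL-KO) in KO mice, whereas those of S100a8 were 15105, 21793, 20954 and 23347 TPM in the same order. Of 9 erythroid markers, 2 were lower and 3 higher in KO mice on the ground, and 3 were lower and 2 higher in flight. The list summed to 86936 to 203707 TPM in GC-WT and 165850 to 244603 TPM in GC-KO mice. Haemoglobin genes made up most of the erythroid sum. Of 7 monocyte and macrophage markers, 3 were lower on the ground and 6 in flight, and 4 of 7 B cell markers were lower in either setting. The part of these cell types in the difference between genotypes was not tested. Of the 8 skeletal muscle markers, 3 were tested. Myh1 was at 0.06 TPM or less in every library, whereas Mylpf lay between 1.21 and 4.05 TPM, with means of 3.19 (ground) and 1.71 TPM (flight) in WT mice and of 3.34 and 2.09 TPM in KO mice. On the ground, 1 of the 3 was higher and 0 lower in KO mice. Besides Mylpf, the 3 were Ckm and Acta1, at 1.29 and 1.11 TPM or less in every library. Their means were highest in GC-KO mice (0.613 and 0.448 TPM). A gene was tested if any library exceeded 1 TPM, which can favour genes high in GC-KO mice. This count is therefore no evidence of a difference.

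Pgk1 and Bpgm also had the lowest GC content of the 10 genes, 49.7% of the longest transcript for each, against 52.1% to 57.7% for the others. The trend with GC content and length was removed together with the mean shift of each library. After that, 6 of the 10 enzymes were lower in KO mice at an adjusted p under 0.1 on the ground and 7 in flight. The difference of their median from that of all tested genes was then -0.28 and -0.59.

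The next comparison asked how flight mice differed from ground mice of the same genotype. In WT mice, 2 of the 10 enzymes, Hk1 and Pfkl, were lower in flight at an adjusted p under 0.1 and 0 were higher, while 39.0% of all tested genes were lower and 0.994% higher. With limma, 0 were DEGs, against 0.938% of all tested genes in this direction, and 0 had groups without overlap, against 4.19%. The mean TPM of Hk1 fell by 42.3% (-0.78 ± 0.18 SE, adjusted p = 0.00355; exact two-sided permutation test, unadjusted p = 0.0152), and 4 of 6 FL-WT mice were below all GC-WT mice. Hk1 was lower under each scaling tried, with log2 fold changes of -0.42 with median-of-ratios scaling, -0.55 with quantile normalisation, -0.83 without small RNAs and -0.40 with the GC and length trend removed. The value of Pfkl (-0.33 ± 0.15 SE, adjusted p = 0.089; exact p = 0.132) did not pass with median-of-ratios scaling or quantile normalisation (-0.03 and -0.04), with a pseudocount of 0.1 or with the compared groups alone, and it turned to 0.026 with the GC and length trend removed. It also did not pass without any 1 of 8 libraries (adjusted p of 0.117 to 0.233 without GC-WT mice 05, 06, 07 or 08 or FL-WT mice 03, 05, 06 or 10).

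Markers of cell types differed with flight as well. All 7 B cell markers were lower in flight in both genotypes, as were 3 of 4 megakaryocyte markers in WT and 4 of 4 in KO mice, and 4 of 9 erythroid markers in WT and 5 of 9 in KO mice, against 39.0% and 53.1% of all tested genes. Among the erythroid markers, Slc4a1 had means of 438 TPM in GC-WT, 193 TPM in FL-WT, 328 TPM in GC-KO and 93.1 TPM in FL-KO mice. The summed level of the list, which was mostly of haemoglobin genes, overlapped between flight and ground mice (86936 to 203707 TPM in GC-WT and 144870 to 206859 TPM in FL-WT mice). Of 10 neutrophil markers, 5 were higher and 0 lower in flight in WT mice, and 1 was higher and 2 lower in KO mice. All 3 tested muscle markers were lower in flight in KO mice and 1 in WT mice. Of these, Ckm and Acta1 passed the filter narrowly (highest values 1.29 and 1.11 TPM) and had their highest means in GC-KO mice. The filter can favour such genes, so these counts are no evidence of a difference. The part of these cell types in the flight values of the enzymes was not tested.

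For the WT mice, the other 8 enzymes lay between -0.17 and 0.17. The values were 0.17 ± 0.15 SE for Tpi1, 0.12 ± 0.22 SE for Pkm, 0.11 ± 0.15 SE for Pgk1, 0.07 ± 0.18 SE for Gapdh, -0.04 ± 0.22 SE for Eno1, -0.05 ± 0.22 SE for Aldoa, -0.12 ± 0.17 SE for Gpi1 and -0.17 ± 0.17 SE for Bpgm, with adjusted p between 0.404 and 0.908. Since most genes were lower in flight, the median of the 10 enzymes (-0.04) was 0.20 above that of all tested genes. This difference was 0.0143 with quantile normalisation and 0.0029 with no filter. With median-of-ratios scaling 4 enzymes were higher in FL-WT mice, Tpi1 (0.54, adjusted p = 0.000105), Pkm (0.51, adjusted p = 0.028), Pgk1 (0.49, adjusted p = 0.000676) and Gapdh (0.45, adjusted p = 0.00769). Thus, the calls of these 4 enzymes depended on the scaling. Without GC-WT mouse 05, in which Bpgm was lowest, Bpgm passed the test (-0.34, adjusted p = 0.0867).

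In KO mice, 8 of the 10 enzymes were lower in flight than on the ground at an adjusted p under 0.1 and 0 were higher, but 53.1% of all tested genes were also lower (0.299% were higher). Only Hk1 was a DEG, against 2.13% of all tested genes; its mean TPM fell by 54.2% (-1.01 ± 0.18 SE, adjusted p = 0.000249), and all 6 FL-KO mice were below all 6 GC-KO mice. The groups of Pfkl did not overlap either (-0.59 ± 0.15 SE, adjusted p = 0.00398; for Hk1 and Pfkl exact two-sided permutation test, unadjusted p = 0.00216). Such a gap was found for 18.4% of all tested genes. The other 6 that passed were Pkm (-0.61 ± 0.22 SE, adjusted p = 0.0284), Aldoa (-0.51 ± 0.22 SE, adjusted p = 0.0621), Eno1 (-0.46 ± 0.22 SE, adjusted p = 0.0898), Gpi1 (-0.43 ± 0.17 SE, adjusted p = 0.0454), Tpi1 (-0.40 ± 0.15 SE, adjusted p = 0.0382) and Bpgm (-0.38 ± 0.17 SE, adjusted p = 0.079). Gapdh (-0.28 ± 0.18 SE, adjusted p = 0.203) and Pgk1 (0.01 ± 0.15 SE, adjusted p = 0.968) did not pass.

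Most of these calls rested on the scaling or on a few libraries. The count of 8 was 2 with median-of-ratios scaling, with quantile normalisation and without small RNAs, and 1 with the GC and length trend removed. Gpi1, Tpi1 and Bpgm turned to values above 0 with median-of-ratios scaling, and Gpi1, Pfkl and Eno1 with the trend removed. The count was 3 without GC-KO mouse 11, 4 without GC-KO mouse 12 or FL-KO mouse 02, and 5 without FL-KO mouse 04. Hk1 passed in each of these fits, with log2 fold changes of -0.61 with median-of-ratios scaling or quantile normalisation, -0.88 without small RNAs and -0.41 with the trend removed. Pgk1 passed as higher with median-of-ratios scaling (0.45, adjusted p = 0.00113), quantile normalisation (0.34, adjusted p = 0.00232) and the trend removed (0.26, adjusted p = 0.0174).

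The difference of the flight effect between genotypes was tested as an interaction. It did not pass for any of the 10 enzymes with limma (0 of 10, against 0.0162% of all tested genes that were lower), and 2 had an unadjusted p under 0.05. These were Tpi1 (-0.57 ± 0.22 SE, unadjusted p = 0.0141) and Pkm (-0.73 ± 0.31 SE, unadjusted p = 0.0247). All 10 estimates were negative, with a median of -0.33 against -0.06 for all tested genes. The enzymes were measured in the same libraries, so their signs are not independent. With quantile normalisation, the interaction estimates of Pgk1 and Bpgm turned to 0.08 and 0.01, and without small RNAs that of Pgk1 turned to 0.10. With median-of-ratios scaling and with the GC and length trend removed, 1 enzyme passed, Tpi1 (-0.51, adjusted p = 0.0882, and -0.43, adjusted p = 0.0555).

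The share of each enzyme in the summed TPM of the 10 does not depend on the scaling between libraries, although it shows only unequal change. On the ground, the mean share of Bpgm was 12.4% ± 3.09 (SD, n = 6) in WT and 20.6% ± 5.28 (SD, n = 6) in KO mice, and the groups overlapped (6.57% to 15.6% and 12.4% to 27.9%). In flight, its median share was 11.2% in WT and 20.9% in KO mice, and all KO mice (17.3% to 21.1%) were above all WT mice (7.68% to 12.4%). The share of Pgk1 was 5.19% ± 0.302 (SD, n = 6) in FL-WT and 8.68% ± 0.91 (SD, n = 6) in FL-KO mice, without overlap, and on the ground 4.85% ± 0.896 (SD, n = 6) and 6.64% ± 0.76 (SD, n = 6), with overlap. Conversely, the share of Aldoa was lower in KO mice without overlap in both settings, 9.95% to 11.6% in GC-WT against 6.22% to 9.45% in GC-KO and 9.33% to 11.4% in FL-WT against 6.17% to 8.13% in FL-KO mice. The share of Pkm was 11.5% to 14.4% in FL-WT and 7.28% to 8.4% in FL-KO mice, also without overlap. In flight, the shares of Eno1 (7.54% to 9.7% in FL-WT and 5.97% to 6.99% in FL-KO mice) and Pfkl (0.228% to 0.294% and 0.146% to 0.222%) did not overlap either.

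The share of Hk1 differed between flight and ground mice. It was 1.58% to 2.49% in GC-WT and 1.02% to 1.23% in FL-WT mice, and 1.73% to 2.56% in GC-KO and 0.954% to 1.46% in FL-KO mice, without overlap in either genotype. The share of Pfkl was lower in flight without overlap in KO mice (0.236% to 0.293% in GC-KO and 0.146% to 0.222% in FL-KO mice), whereas it overlapped in WT mice. Gapdh kept between 32.2% and 41.3% of the sum in all 24 mice, and its groups overlapped in every comparison.

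**Figure D3:**
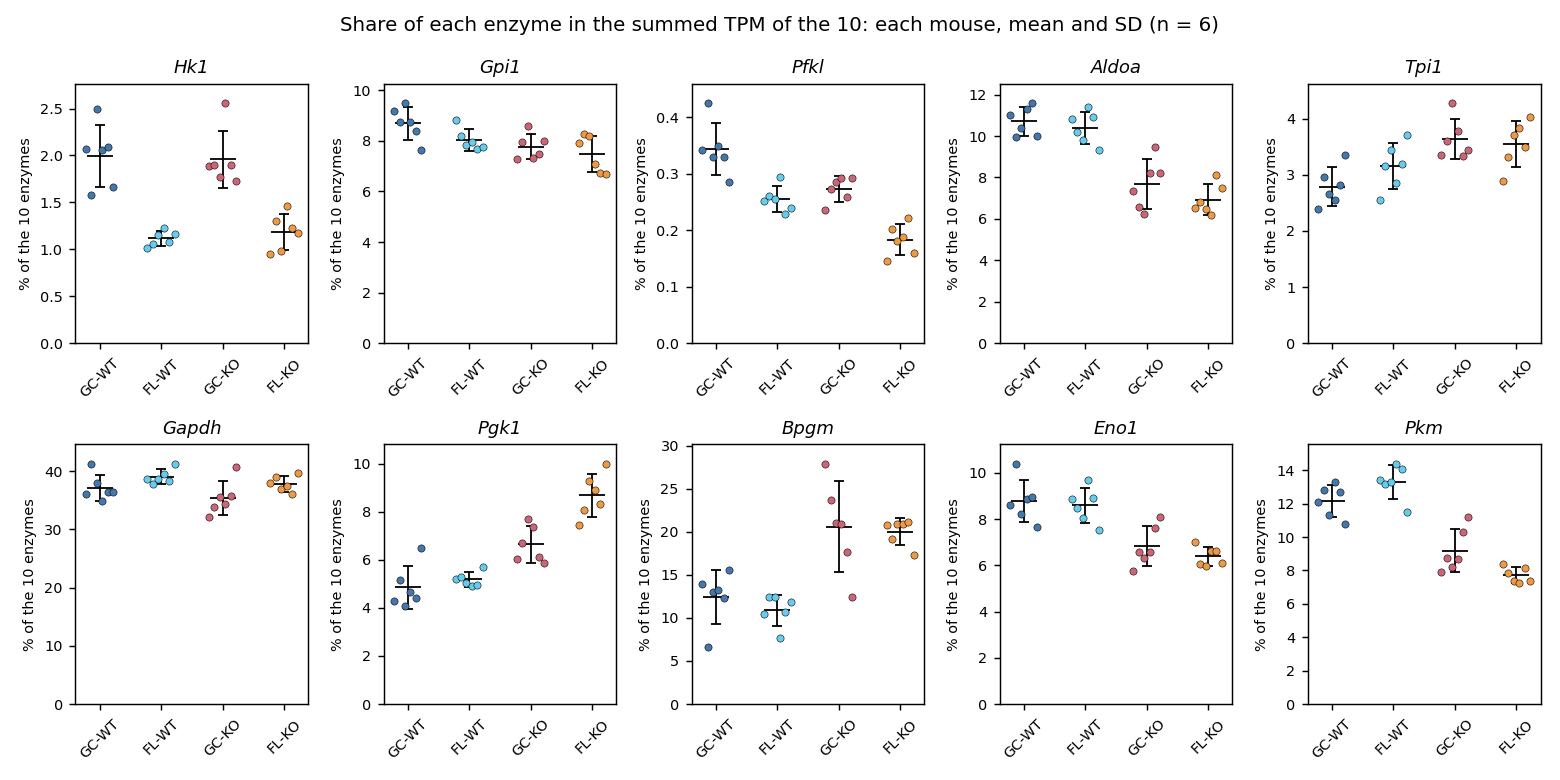
Share of each enzyme in the summed TPM of the 10 (vertical axes, percent, each from 0) in the 4 groups; points are mice and bars the mean and SD of 6 mice. Bpgm and Pgk1 take a larger share and Aldoa, Eno1, Pkm and Pfkl a smaller share in FL-KO than in FL-WT mice. Hk1 takes a smaller share in flight in both genotypes.

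Within the hexokinase step, Hk1 shared the TPM with Hk3, the hexokinase of myeloid cells, and with Hk2. Hk1 made up 40.5% ± 5.07 (SD, n = 6) of hexokinase TPM in GC-WT and 29.7% ± 2.38 (SD, n = 6) in FL-WT mice, and all FL-WT mice (26.8% to 33.1%) were below all GC-WT mice (36.5% to 50.4%). Hk3 made up 50.8% ± 4.25 (SD, n = 6) in GC-WT and 61.0% ± 2.14 (SD, n = 6) in FL-WT mice, again without overlap, although its own level was 33.6 and 32.6 TPM. In KO mice, the share of Hk1 was 49.3% ± 6.33 (SD, n = 6) on the ground and 45.9% ± 4.29 (SD, n = 6) in flight, with overlap. The level of Hk3 fell from 14.6 to 6.95 TPM in KO mice in flight (-0.89 ± 0.24 SE, adjusted p = 0.00579), beside the fall of Hk1.

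**Figure D4:**
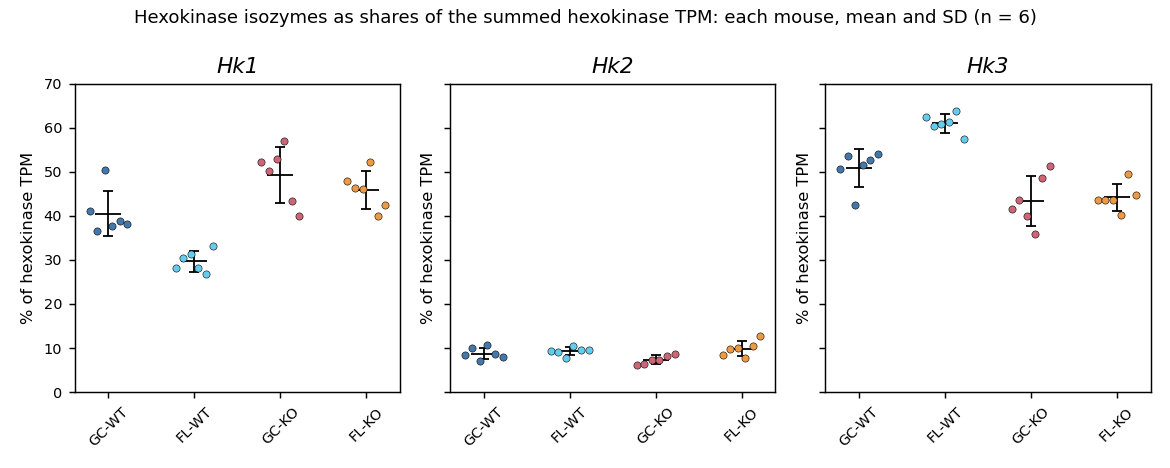
Hk1, Hk2 and Hk3 as percent of the summed hexokinase TPM (vertical axes from 0) in the 4 groups; points are mice and bars the mean and SD of 6 mice. All FL-WT mice lie below all GC-WT mice for Hk1 and above them for Hk3, while the KO groups overlap.

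Phosphofructokinase was likewise split between its subunits. Pfkl made up 35.0% ± 2.74 (SD, n = 6) of their TPM in GC-WT and 28.1% ± 2.3 (SD, n = 6) in FL-KO mice, with the muscle-type Pfkm at 28.3% and 33.2% and the platelet-type Pfkp at 36.7% and 38.7%. At the remaining steps, the enzyme examined held nearly all of the TPM. Aldoa made up 99.0% or more of aldolase TPM in every mouse, Gapdh 99.9% or more of its step, Pgk1 99.8% or more, Eno1 95.8% or more and Pkm 94.6% or more. The remainder of pyruvate kinase was Pklr, the isozyme of red cells and liver, at 1.05% to 5.41%.

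Other genes of glycolysis, a list of 31 transporters, isozymes, regulators and further enzymes, followed the enzymes in part. Of these, 22 were tested. On the ground, 17 were lower and 0 higher in KO mice, while 42.9% of all tested genes were lower, and the list had a median log2 fold change of -0.37, which differed from that of all tested genes by -0.15. In flight, 19 were lower and 0 higher, while 47.2% of all tested genes were lower, and the median was -0.60, with a difference of -0.35. The 4 DEGs in each were Hk3, the lactate exporter Slc16a3, the glucose transporter Slc2a3 and Hk2, of which Hk2 is named after its values were seen. DEGs of lower level made up 3.04% of all tested genes on the ground and 8.36% in flight. With median-of-ratios scaling, the 4 fell short of 2-fold on the ground (Hk3 -0.904, Slc2a3 -0.741, Hk2 -0.735 and Slc16a3 -0.727). With the GC and length trend removed, they lay between -0.646 and -0.386 there. In flight, Hk2 fell short with either (-0.902 and -0.491), and Slc16a3 fell short with the trend removed (-0.744). Slc2a3 had means of 26.0 TPM in GC-WT and 12.3 TPM in GC-KO mice (-1.07 ± 0.21 SE, adjusted p = 0.000653) and of 23.3 TPM in FL-WT and 7.29 TPM in FL-KO mice (-1.48 ± 0.21 SE, adjusted p = 5.51e-06). The log2 fold change of Hk3 was -1.23 on the ground and -2.01 in flight, that of Slc16a3 -1.05 and -1.63, and that of Adpgk, an ADP-dependent glucokinase, -0.76 and -0.98. Pfkfb3 (-0.69 on the ground) and Pfkfb4 (-0.87 in flight), which set the level of the phosphofructokinase activator fructose-2,6-bisphosphate, were also lower in KO mice, but with the trend removed the value of Pfkfb4 in flight was -0.10 and did not pass (adjusted p = 0.361).

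Between flight and ground, 5 of the 22 were lower in WT mice, where 39.0% of all tested genes were, and 13 were lower in KO mice, against 53.1%. The medians were -0.15 and -0.40, against -0.24 and -0.29 for all tested genes, and 0 were higher in either. The monocarboxylate transporter Slc16a1 fell most, from 30.3 to 14.9 TPM in WT mice (-0.99 ± 0.18 SE, adjusted p = 0.000349) and from 26.0 to 11.1 TPM in KO mice (-1.16 ± 0.18 SE, adjusted p = 4.45e-05), without overlap in either. Minpp1, a phosphatase that can remove phosphate from 2,3-bisphosphoglycerate, the product of Bpgm, fell from 16.9 to 10.9 TPM (-0.60 ± 0.14 SE, adjusted p = 0.0038) and from 14.6 to 8.17 TPM (-0.79 ± 0.14 SE, adjusted p = 0.000252). The other 3 lower in WT mice were Pfkfb2, Pfkm and Pklr, each under 5 TPM and named after their values were seen. In KO mice, Hk3, Slc2a3 (-0.64 ± 0.21 SE, adjusted p = 0.0209) and Slc16a3 (-0.57 ± 0.23 SE, adjusted p = 0.0432) were lower in flight as well. Slc2a3 no longer passed with median-of-ratios scaling, quantile normalisation or the trend removed (adjusted p = 0.188, 0.183 and 0.173). Slc16a3 did not pass with these or without small RNAs (adjusted p of 0.173 to 0.903) and turned to 0.0312 with the trend removed.

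Across the 24 libraries, the enzymes fell into patterns of unlike shape. With log2(TPM + 1) less the median of all tested genes in each library, Pearson's r with the mean of the other enzymes without Bpgm was 0.995 for Pkm, 0.991 for Eno1, 0.97 for Aldoa, 0.953 for Gpi1, 0.948 for Gapdh and 0.893 for Pfkl. It was lower for Tpi1 (0.676) and Hk1 (0.483) and near 0 for Pgk1 (0.047), and for Bpgm it was -0.315. These r describe 24 libraries that share depth and composition, and part of them is the difference between groups. Within groups, r was 0.981 for Pkm and 0.971 for Eno1, 0.411 for Tpi1, 0.399 for Hk1 and 0.395 for Pgk1, and -0.011 for Bpgm, so that Pgk1 lay close to Tpi1 and Hk1. Among the genes most like Bpgm were Ube2l6, Ccndbp1, Hba-a2 and Alas2 (r 0.866 to 0.912, within groups 0.918 to 0.944), of which Hba-a2 encodes an alpha-globin chain and Alas2 the first enzyme of haem synthesis in erythroid cells. Those most like the mean of the other 9 enzymes were Pgd, G6pdx, H13, Tkt and Flot2 (r 0.985 to 0.99). Pgd, G6pdx and Tkt are enzymes of the pentose phosphate pathway. G6pdx was lower in KO mice, with log2 fold changes of -1.19 on the ground and -1.71 in flight, whereas Alas2 had means of 640 TPM in GC-WT, 549 TPM in FL-WT, 795 TPM in GC-KO and 576 TPM in FL-KO mice. Both genes were picked by r over these same libraries, so their contrast follows in part from the choice.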

How the data were processed

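RNA of cryopreserved bone marrow cells was measured in 24 mice, with groups from the sample labels. Per the labels and the study's methods, the authors used ISOGEN-LS and the MGIEasy RNA Directional Library Prep Set, aligned reads with STAR 2.6.1 (genome mm10) and deposited TPM from RSEM 1.3.1 with no further scaling (column sums 999999.5 to 1000001.1). Read counts are not given in the sources used here, so the depth and the counting error of a value are unknown.

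The table holds 54752 genes, of which 26504 are 0 throughout. The test took the 12373 genes that exceeded 1 TPM in any library. It was limma 3.58.1 (R 4.3.3) on log2(TPM + 1) of all 24 libraries, with a mean per group and Benjamini-Hochberg adjustment. A fold change is on this scale. Calls had an adjusted p under 0.1, and DEGs also changed 2-fold or more. For single genes, rank sums were compared by a two-sided exact permutation test, unadjusted. Shares and correlations are descriptions. Other steps ran in Python 3.11.15 (scipy 1.17.1, pandas 2.3.3, numpy 2.4.6, matplotlib 3.10.9). GENCODE M21 matched 54723 IDs by ID without version. The limma fit and the median-of-ratios scaling were tested on simulated data. There, genes varied independently and no group had a shift of most genes. The fit was thus not tested under the shift found in the real data.

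The enzymes and lists were chosen with earlier results of these data known. Named are the 10 enzymes. Of the other glycolysis genes, up to 5 with the largest change are named per comparison among those called with a mean of at least 5 TPM, as are the 5 genes most like Bpgm, of which 1 is not reported here, and the 5 most like the other 9 enzymes. Alternatives were a pseudocount of 0.1, other filters, median-of-ratios scaling, quantile normalisation, removal of small RNAs or of the GC and length trend (12370 genes), a mean-expression trend, an adjusted p under 0.05, the compared groups alone, leaving out each library and blocking on mouse number.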

Additional observations from a re-analysis of the deposited data

Results flagged for a closer look

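Of 40 groups of 6 mice (10 enzymes in 4 groups), 2 had a mouse far from the others by Dixon's test at the 95% level, and chance gives about 1 in 20. Bpgm was lowest in GC-WT mouse 05, at 86.19 TPM, with a gap to the next mouse of 0.798 of the range of the group. The summed level of the erythroid markers was also lowest of its group in this mouse (86936 TPM). Its part in the value of Bpgm was not tested. Without this mouse, the log2 fold change of Bpgm was -0.34 for flight in WT mice and -0.21 for the knockout on the ground. Pgk1 was lowest in FL-KO mouse 02, at 38.14 TPM, with a gap of 0.713 of the range. In this mouse, 7 of the 10 enzymes were the lowest of the group.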

How the results depend on the processing

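The counts of enzymes lower in Nrf2-KO mice kept within 1.5 times under all alternatives on the ground (6 to 9 of 10) and in flight (7 to 9). The depth of the libraries is unknown, so a low count cannot be told from a low level. With median-of-ratios scaling, the GC and length trend removed or quantile normalisation, 1 enzyme was lower in FL-WT vs. GC-WT, as with a pseudocount of 0.1, no filter, the compared groups alone or an adjusted p under 0.05, and 4, 4 and 2 were higher. In FL-KO vs. GC-KO, 2, 1 and 2 enzymes were lower, 1 was higher with each and 0 were DEGs. Without small RNAs, 2 were lower and 0 were DEGs, 4 were lower with no filter and 5 at an adjusted p under 0.05. The DEGs in GC-KO vs. GC-WT were 0 with median-of-ratios scaling or the trend removed and 5 without small RNAs. In FL-KO vs. FL-WT, they were 3 and 2 with the first 2 settings. The interaction passed for 1 enzyme with either. The median of the enzymes relative to all tested genes moved to -0.28 in GC-KO vs. GC-WT and to -0.59 in FL-KO vs. FL-WT with the trend removed, and to -1.11 in FL-KO vs. FL-WT with no filter, where more unexpressed genes enter the median of all genes.

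Reversed log2 fold changes were as follows. With median-of-ratios scaling, in FL-WT vs. GC-WT Gpi1 was at 0.27, Aldoa at 0.34, Bpgm at 0.22 and Eno1 at 0.34. For flight in KO mice, Gpi1 was at 0.0133, Tpi1 at 0.0303, Gapdh at 0.17 and Bpgm at 0.0696. In GC-KO vs. GC-WT, Pgk1 was at 0.0382 and Bpgm at 0.31, and in FL-KO vs. FL-WT at 0.0037 and 0.16. With the GC and length trend removed, in FL-WT vs. GC-WT Gpi1 was at 0.20, Pfkl at 0.026, Aldoa at 0.13, Bpgm at 0.062 and Eno1 at 0.20. For flight in KO mice, Gpi1 was at 0.0282, Pfkl at 0.0119, Gapdh at 0.19 and Eno1 at 0.0068. Bpgm was at 0.23 in GC-KO vs. GC-WT and at 0.10 in FL-KO vs. FL-WT. With quantile normalisation, Aldoa was at 0.031 and Eno1 at 0.0691 in FL-WT vs. GC-WT, and Bpgm was at 0.017 in GC-KO vs. GC-WT and at 0.0305 in FL-KO vs. FL-WT. Median-of-ratios scaling sets the median of all genes near 0, and quantile normalisation gives all libraries the same distribution. Removal of the GC and length trend also took out the mean shift of each library. Its reversals therefore cannot be assigned to GC content and length, and the part of each was not tested.

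With each library left out in turn, 1 to 2 enzymes were lower in FL-WT vs. GC-WT and 3 to 8 in FL-KO vs. GC-KO, where 0 to 1 were DEGs (0 without GC-KO mouse 09, 11 or 12 or FL-KO mouse 01, 02, 04 or 12). In FL-WT vs. GC-WT, the log2 fold change ranged from -0.19 to 0.0619 for Aldoa, from -0.19 to 0.0693 for Eno1, from -0.0535 to 0.18 for Gapdh and from -0.018 to 0.23 for Pkm. It ranged from -0.0465 to 0.0952 for Pgk1 in FL-KO vs. GC-KO and from -0.21 to 0.0378 for Bpgm in GC-KO vs. GC-WT.

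In the labels, a ground mouse and a flight mouse of each genotype carry the same number. Of 12 pairs with the same number, 7 had a correlation of deviations over 0.1 (-0.03 to 0.27), 10 had one above 0, and 8 of 24 mice correlated best with their own number, where 4 would do so with no relation. As not every pair was over 0.1, the mice were not treated as paired, and whether the numbers mark a shared condition is not known. With the mouse number as a replicate block, 2 enzymes were lower for flight in WT mice, 8 were lower for flight in KO mice and 0 passed the interaction, and no call of an enzyme changed.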

Other observations

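The second row named Aldoa (ENSMUSG00000114515.2, chr7:126800790-126809108 on GRCm38) lies just beyond the first on the same strand and did not reach the TPM minimum for testing. It had means of 0.612 TPM in GC-WT, 0.325 TPM in FL-WT, 0.295 TPM in GC-KO and 0.23 TPM in FL-KO mice. How reads shared by the 2 rows were divided is not given in the sources used here.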
